A study of Homo sapiens with 3 samples.

Results

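Gene expression in RH30 cells given an anti-MYCN peptide nucleic acid (PNA) was set against that in RH30 cells given a mutated PNA, both at 10 µM and both read at 12 h. RH30 is an established line of alveolar rhabdomyosarcoma, a tumour of the skeletal muscle lineage. The series holds 3 arrays, and the comparison uses 2 of them, 1 for each PNA. The third is that of cells given no PNA, also at 12 h. It entered the signal filter, the floor, the scaling and the background, and served as a control in some alternative settings. All 3 cultures were of the same line, and the mutated PNA is described by the submitters as inactive. The labels of that last array conflict, since the title and the treatment text give no PNA while the source name gives the mutated one. The name untreated follows the title, and any order of the controls rests on it.

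Members of the comparison were genes. A probe set, the group of short probes that reads 1 transcript, was kept if it named 1 gene and its mean signal over the 3 arrays reached 117, the pooled 50th percentile. Signals below 23.4, the pooled 25th percentile, were set to that value, and the log2 difference of anti-MYCN PNA minus mutated PNA was taken. The brightest passing probe set stood for its gene, which gave 6745 genes of 11963 on the array. With 1 array per PNA there was no replicate error and no test, and nothing in the labels says whether the cultures were independent. Every value below is therefore a difference between single arrays, and a gene is called higher or lower in that sense only. Signals are linear MAS5 intensities in arbitrary units, and for each gene they stand in the order anti-MYCN PNA, mutated PNA, untreated unless a sentence says otherwise.

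A PNA carries the bases of DNA on a backbone like that of a peptide and pairs with complementary nucleic acid, and an anti-gene PNA is designed to pair with the DNA of its target gene. MYCN encodes a transcription factor of the MYC family. It forms a dimer with MAX and binds the E-box CACGTG, and MXD and MNT proteins compete for the same partner. MYC-family factors are known to raise genes of ribosome production, translation, nucleotide and polyamine synthesis, glycolysis and the cell cycle, and to hold down genes of growth arrest. In alveolar rhabdomyosarcoma the fusion factor PAX3-FOXO1 and the muscle factors MYOD1 and MYOG act in the same cells.

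The promoters of the targeted gene and of 3 genes that MYC-family factors are known to activate show the motif concerned. Each stretch is the 250 bases before the gene's start, 5′ to 3′ on the gene's strand, from RefSeq's table of GRCh38.p14, with E-boxes in capitals. MYCN is shown as the target (chr2:15940300-15940549, plus strand), CDK4 as a MYC-activated gene with 3 E-boxes (chr12:57752311-57752560, minus strand), EIF4E as the one furthest below the mutated PNA (chr4:98929134-98929383, minus strand), and HSPE1 for an E-box that it shares with its head-to-head neighbour HSPD1 (chr2:197500129-197500378, plus strand). They were chosen after their values were seen.
MYCN: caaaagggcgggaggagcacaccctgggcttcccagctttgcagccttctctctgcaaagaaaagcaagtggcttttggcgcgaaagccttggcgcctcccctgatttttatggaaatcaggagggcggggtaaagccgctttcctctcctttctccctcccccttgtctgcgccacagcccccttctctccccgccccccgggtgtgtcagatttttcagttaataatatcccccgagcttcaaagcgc
CDK4: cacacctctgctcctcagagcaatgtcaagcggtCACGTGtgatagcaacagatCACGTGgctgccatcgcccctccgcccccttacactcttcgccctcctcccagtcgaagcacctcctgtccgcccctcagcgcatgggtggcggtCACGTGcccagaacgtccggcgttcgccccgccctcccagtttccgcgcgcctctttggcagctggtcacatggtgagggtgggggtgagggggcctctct
EIF4E: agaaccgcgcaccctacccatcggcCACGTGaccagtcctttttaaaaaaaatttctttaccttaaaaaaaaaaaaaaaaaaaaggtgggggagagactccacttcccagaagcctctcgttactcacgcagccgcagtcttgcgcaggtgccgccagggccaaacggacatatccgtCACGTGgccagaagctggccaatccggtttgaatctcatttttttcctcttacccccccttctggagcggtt
HSPE1: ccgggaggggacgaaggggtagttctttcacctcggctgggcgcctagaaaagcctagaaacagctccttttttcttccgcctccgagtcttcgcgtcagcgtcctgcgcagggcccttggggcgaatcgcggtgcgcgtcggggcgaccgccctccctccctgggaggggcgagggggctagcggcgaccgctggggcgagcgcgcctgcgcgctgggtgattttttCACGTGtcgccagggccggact
CACGTG reads the same on both strands. No E-box lies in these letters for MYCN, 3 lie in the CDK4 stretch, 2 in the EIF4E stretch and 1 in the HSPE1 stretch. CDK4, the cyclin-dependent kinase of G1, read 40713, 28080.5 and 29163, a log2 difference of 0.54. EIF4E, the cap-binding protein of translation, read 1187, 1972 and 1788, a log2 difference of −0.73. The chaperonin partners HSPE1 and HSPD1 differed by −0.49 and −0.05. Genes with an E-box in this window thus stood on both sides of the mutated PNA.

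Counted over the table's window of 250 bases before to 50 after the start, CACGTG was present in 7.43% of all 27305 promoters and in 11.1% of the 5688 genes compared that had one. Of the 31 MYC-activated genes compared, 27 had a promoter and 12 of those (44.4%) held the motif. Genes at least 2-fold higher held it in 13 of 151 promoters (8.61%), and genes at least 2-fold lower in 13 of 134 (9.70%). The median log2 difference was 0.04 for all genes with the motif and 0.06 for those without it. A match is a description of these letters and not a bound site.

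MYCN itself read 2202, 2804 and 3313 on its bright probe set. The anti-MYCN PNA array was the lowest of the 3 and stood at 78.6% of the mutated PNA array, a log2 difference of −0.35. In the 674 genes of like signal, 95% of the differences between the control arrays were within 0.37. Of those genes, 155 (23.0%) were as low as MYCN or lower against the mutated PNA. Over all genes compared the figure was 1419 (21.04%). Of the gene's other probe sets, 1 read 17.4, 29.8 and 55.3 and the other 11.3, 9.0 and 8.2, all far below the filter. The MYCN difference was below 0 under all 15 alternatives in which it could be computed, from −0.59 to −0.30. Other filters, no floor and the median over probe sets could not change it, and it stayed at −0.35.

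The arrays differed in ways that all genes share. The 2% trimmed mean was 500.2 on each, but signals reached 50332 in anti-MYCN PNA cells and 32467 in mutated PNA cells. Poly-A spikes, bacterial RNAs added before labelling, had a median ratio of anti-MYCN PNA to mutated PNA of 0.382 over 24 probe sets, from 0.246 to 0.680. Control probe sets for 18S ribosomal RNA had a median ratio of 0.320. For the same probe sets mutated PNA over untreated gave 1.06 and 1.24. The part of these shifts in the results below was not tested. Of 12 markers of the line and its lineage 11 passed the filter, with MYOD1 at 7834, 6266 and 6715 and MYOG, a later muscle factor, at 1024, 1238 and 748; CHRND did not. Markers of other cells were mostly below the filter, with 3 of 17 epithelial, 1 of 20 leukocyte, 1 of 13 endothelial and 2 of 12 fibroblast markers passing.

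Against the mutated PNA, 182 genes were at least 2-fold higher (2.7% of those compared) and 157 at least 2-fold lower (2.33%). Between the mutated PNA and untreated arrays the same rule gave 25 higher and 25 lower (0.371% each). At 1.5-fold there were 883 higher (13.1%) and 719 lower (10.7%), against 162 (2.4%) and 153 (2.27%) between the controls. Log2 differences had an SD over genes of 0.51, against 0.28 for the controls. The split moved with the scaling: it was 145 higher and 199 lower after quantile normalization, and 85 and 307 when each array was scaled to one median. Median scaling moved the median of all genes from 0.06 to −0.11, so lists are read below against the median of all genes. Of the 182 higher genes, 63 had a mutated PNA signal under the filter and so passed through the other arrays. Of the 157 lower genes, 34 had such an anti-MYCN PNA signal.

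**Figure D1:**
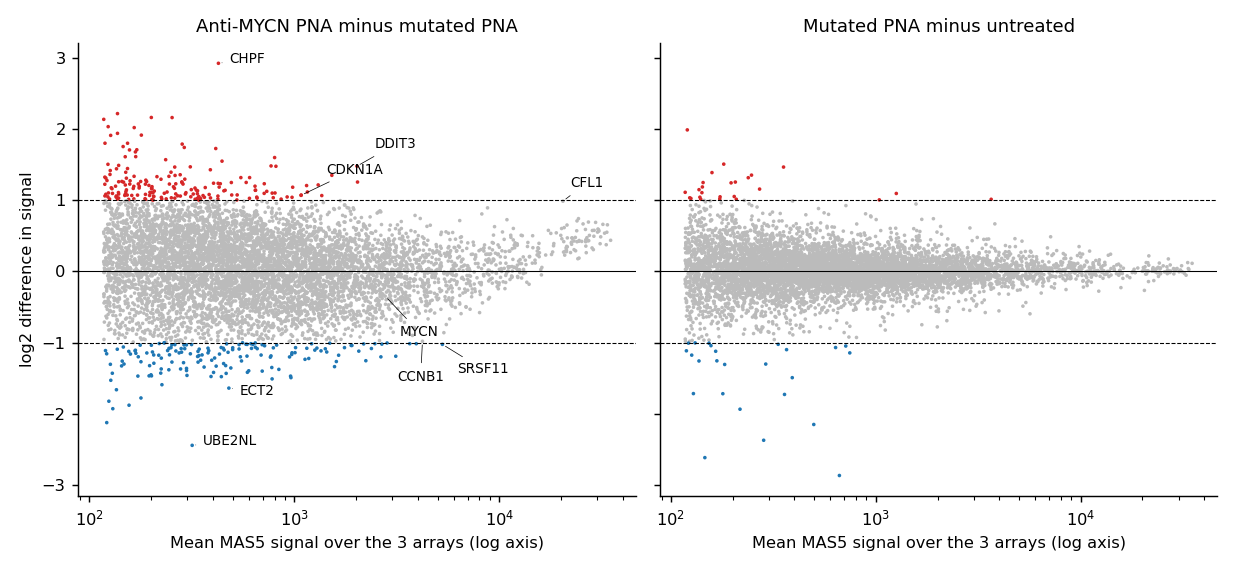
Each point is 1 of 6745 genes, by its mean MAS5 signal over the 3 arrays (log axis) and its log2 difference, for anti-MYCN PNA minus mutated PNA (left) and mutated PNA minus untreated (right). Red and blue mark genes at least 2-fold higher or lower (dashed lines), 182 and 157 on the left and 25 and 25 on the right, and the points spread wider on the left.

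Genes with more than 1 passing probe set gave a further reading of the same arrays. For the 182 higher genes, 52 such probe sets were present, and 47 differed in the same direction, 9 of them 2-fold. For the 157 lower genes the numbers were 71, 57 and 5. Over all genes 2150 of 3154 further probe sets (68.2%) had the direction of the brightest one. Of the 156 genes named by rule that had a further probe set, 47 had one in the opposite direction, among them 17 of the 76 that were at least 1.5-fold apart. The differences given below for B2M, CHRNA1, COL3A1, ENO1, MLX, NOTCH2, OAZ1, USP7 and XRCC5 are in this state and have no settled side. No further probe set of a called gene was 2-fold in the opposite direction. Probe sets with the suffix _x_at, whose probes can match other transcripts, stood for 28 of the higher and 11 of the lower genes and for 7.49% of all genes. Genes read by them are uncertain for that reason.

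Medians of the difference between the PNAs varied with gene length, promoter GC content, mean signal and chromosome, more widely than those of the difference between the controls. In 10 classes of gene length, the shortest genes (up to 5.67 kb) had a median log2 difference of 0.24 and the longest (from 154 kb) of −0.08, with −0.12 in the class below it. Genes called higher had a median length of 22.2 kb and genes called lower of 60.8 kb, against 32.1 kb for all. From the lowest to the highest class of promoter GC the median went from −0.05 to 0.20. Of the genes called higher, 63 lay in the dimmest of 10 classes of mean signal. The median was 0.19 in that class, −0.03 in class 9 and 0.06 in the brightest. By chromosome it ran from −0.22 on chromosome 13 and −0.14 on chromosome 4 to 0.27 on chromosome 22 and 0.33 on chromosome 19. The medians of the controls stayed between −0.02 and 0.03 over these classes of length and GC. Short genes, GC-rich promoters and chromosome 19 go together in the human genome, and these properties cannot be told apart here. Whether they set any gene group's position was not tested, beyond the alternatives that centre each gene on its class.

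**Figure D2:**
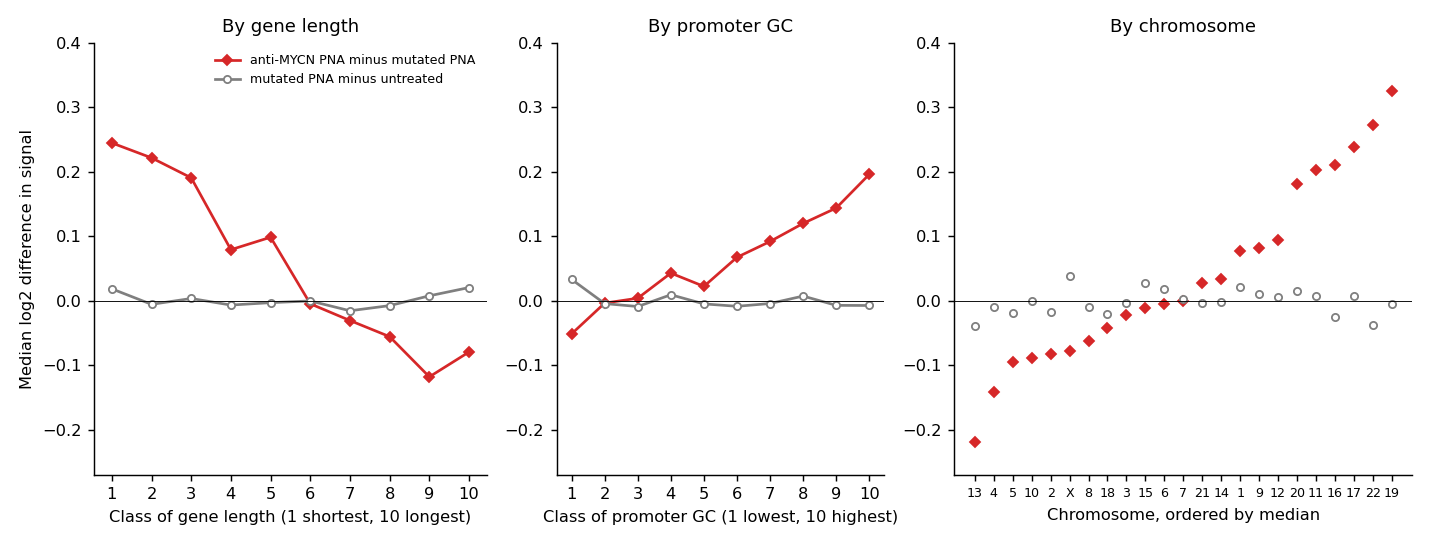
Median log2 difference in signal by class of gene length (10 classes, shortest first), by class of promoter GC (10 classes, lowest first) and by chromosome, for anti-MYCN PNA minus mutated PNA (red) and mutated PNA minus untreated (grey). The red medians go from 0.24 to −0.08 with length and from −0.22 on chromosome 13 to 0.33 on chromosome 19, whereas the grey ones stay near 0.

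CHPF, which polymerises chondroitin chains, stood furthest above the mutated PNA. It read 939, 124 and 215, a log2 difference of 2.92. CACNG4, which accompanies calcium channels and AMPA receptors, read 438, 97.9 and 65.5, and RAB3IL1, an exchange factor for RAB GTPases, read 465, 104 and 191. Most of the 20 genes furthest above were dim on the mutated PNA array, and for all but CACNG4 that array was the lowest of the 3. The ranking by the difference between the PNAs brings part of this about. The ubiquitin ligase RNF122 read 211, 48.1 and 93.0, the metal ion transporter SLC11A1 278, 68.6 and 149, and the organic anion transporter SLCO4A1 218, 56.9 and 136. Both passing probe sets of SLC11A1 carry the suffix _x_at, so its level is uncertain. The further probe set differed by 3.68 in the same direction, with 299.6 on the anti-MYCN PNA array. Its mutated PNA signal, 17.9, was under the floor of 23.4 and was set to it. Signals as dim as those of RNF122, SLC11A1 and SLCO4A1 varied between the controls by up to 0.94 in 95% of genes.

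Several of the same 20 genes act in signalling and gene control. SPRY4, an inhibitor of receptor tyrosine kinase signalling, read 305, 88.3 and 457, so the untreated array was the highest and only the mutated PNA array was low. The histone deacetylase gene HDAC5 read 427, 128 and 316. SNAPC2, a subunit of the complex that starts transcription of small nuclear RNAs, read 243, 74.4 and 153. The zinc finger gene ZNF580 read 723, 219 and 299. Others of the 20 were the exchange factor PLEKHG3 at 251, 66.7 and 219.6, the actin regulator WAS at 213, 56.7 and 111, and TMEM204 at 213, 61.2 and 83.0. SHPK, a kinase of sedoheptulose, read 265, 76.3 and 119, and LMBR1L read 255, 75.8 and 107. ALG12, a mannosyltransferase of N-glycan assembly, read 244, 76.3 and 182, and PKD1, polycystin of the primary cilium, 269.7, 88.3 and 147. Like SLC11A1, the genes ELK2AP, CYP3A4 and RNF123 were read by _x_at probe sets. Their log2 differences were 2.22, 2.03 and 1.71.

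Genes of DNA processing and cell division were among the 20 furthest below. BRIP1, a helicase of crosslink repair, read 52.6, 200.4 and 137. The replication nuclease and helicase DNA2 read 61.4, 226 and 181, and ERCC5, the 3′ nuclease of nucleotide excision repair, differed by −1.78. All 3 were under the filter on the anti-MYCN PNA array alone. ECT2, which activates RhoA at cytokinesis, passed the filter on every array, at 205, 641 and 591, and stood at 32.1% of the mutated PNA. INTS7, a subunit of the Integrator complex of small nuclear RNA processing, read 144, 398 and 355.

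The receptors LGR5, which binds R-spondins, and EPHA7, which binds ephrins, read 56.2, 178 and 172 and 97.0, 293 and 288. In both the controls were close and the anti-MYCN PNA array low. MTMR6, a phosphoinositide phosphatase, read 291, 831 and 1214, PTP4A1, a phosphatase of the PRL family, 458, 1289 and 1139.7, and LIN7C, a scaffold of cell junctions, 469, 1301 and 1105. These 3 passed the filter on every array. The 3 further probe sets of PTP4A1 differed by −0.39, −0.26 and 0.06, so its brightest probe set stood apart from them. That of LIN7C differed by −0.49. GATC, of mitochondrial glutaminyl-tRNA synthesis, read 208, 579 and 534, SOAT1, which esterifies cholesterol, 106, 294 and 202, and the sulfurtransferase TST 63.8, 184 and 133. PHF14, BLTP3B and ZNF426 had log2 differences of −1.47, −1.47 and −1.45. UBE2NL, CFAP70 and TMEM38B, read by _x_at probe sets, had −2.44, −2.13 and −1.48. RPLP2, a protein of the ribosomal stalk, was read by a dim probe set at 56.6, 200.5 and 116, unlike the other ribosomal proteins described further on.

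**Figure D3:**
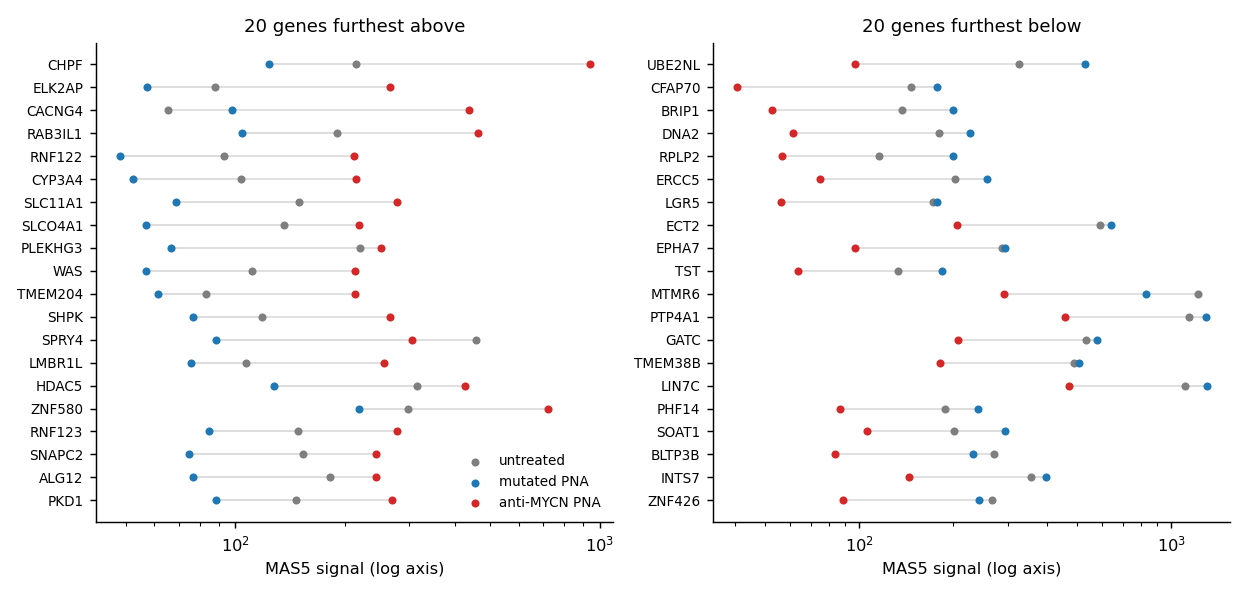
MAS5 signal (log axis) of the 20 genes furthest above and the 20 furthest below the mutated PNA, on the untreated (grey), mutated PNA (blue) and anti-MYCN PNA (red) arrays, 1 array each. In the left panel the blue point is the lowest for all but CACNG4, and in the right panel the red point is the lowest for all 20. The ranking fixes the order of red and blue, and in part that of either against grey.

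At the edge of the signal filter, the 5 genes just inside were UNC5B, RNF122, RFX7, GRK5 and KIF1C, with log2 differences of 0.27, 2.13, 0.13, 0.55 and 0.29. The 5 just outside were RPGR, LINC01278, DGKA, MCOLN1 and IKZF5, with −0.47, 0.32, −0.03, 1.19 and −2.25. Differences of 2-fold or more thus lay on either side of the filter.

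Functions were then compared through lists of genes, each given by its counts at 1.5-fold and its median beside those of all genes (13.1% higher, 10.7% lower, median 0.06). Members of a list are not replicates of each other, and a list may share genes with another. For members named by the size of their difference, the choice fixes which PNA array is lower and favours that array being lowest or highest. In bulk RNA fewer cells of a kind and less RNA per cell cannot be told apart. Of 43 lists with at least 5 genes compared, MHC class I presentation had the highest median and replication-dependent histones the lowest, both over fewer than 10 genes.

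**Figure D4:**
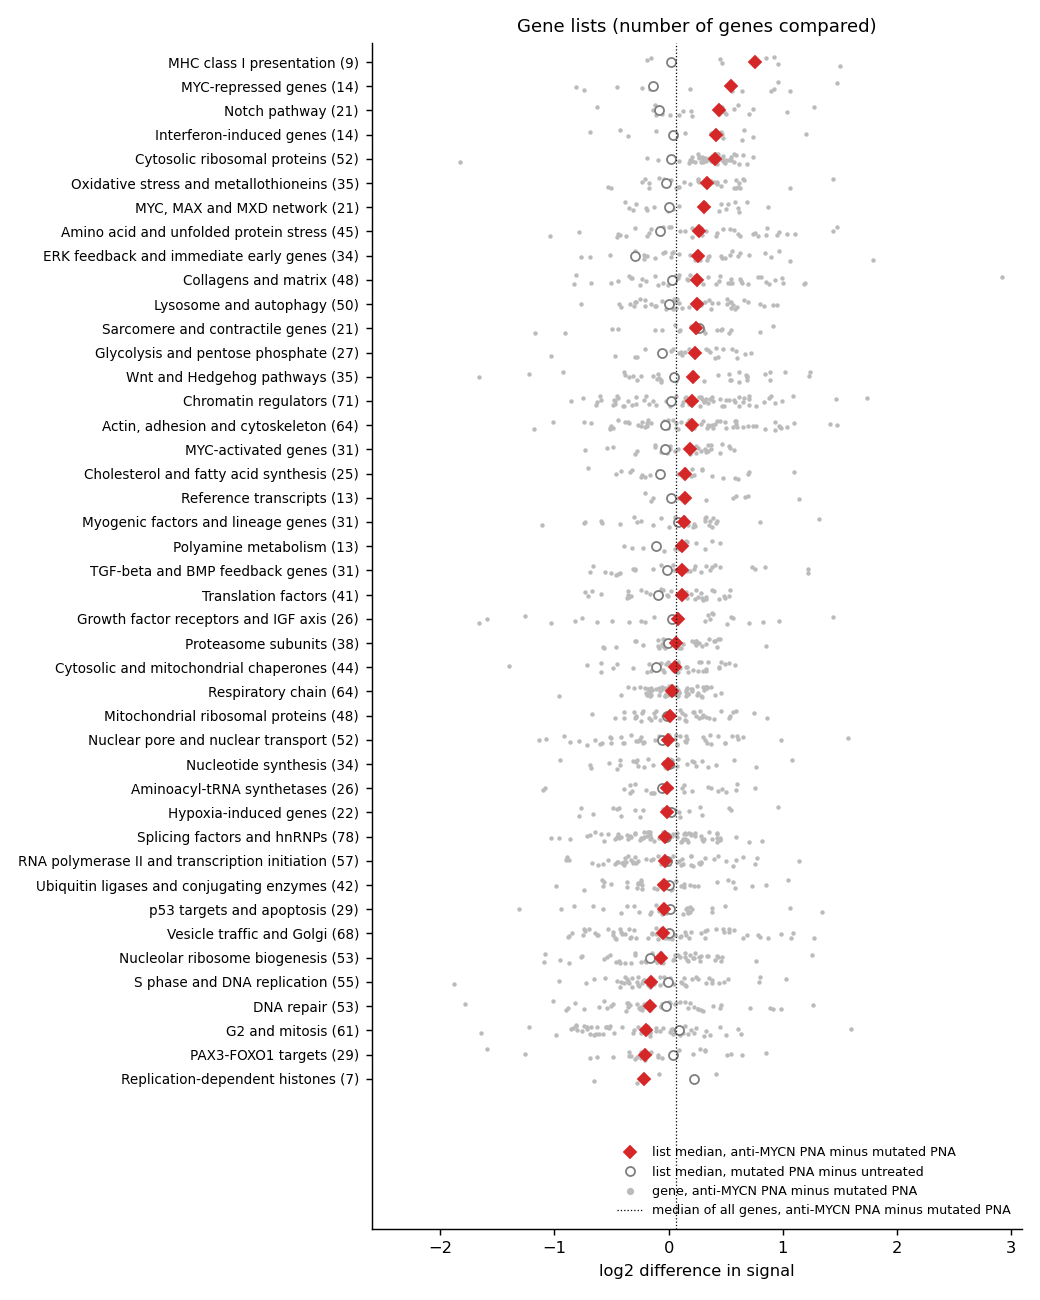
Log2 difference of anti-MYCN PNA minus mutated PNA for each gene of 43 lists (small grey points), with the list median (red diamond), the list median of mutated PNA minus untreated (open circle) and the median of all genes (dotted line, 0.06); the number of genes compared is in brackets. Red medians run from −0.21 (histones) to 0.76 (MHC class I), and the open circle of the ERK list, at −0.29, is the furthest below 0.

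Of MYCN and its partners and rivals, 13 of 21 read above the mutated PNA, as did the median of all genes (0.06). Of the 21 genes compared in the MYC, MAX and MXD network, 4 passed 1.5-fold on the higher side and 0 on the lower. The median was 0.31. Relative to the median of all genes the list stood at 0.25, and at −0.14 with the filter at the 75th percentile. MAX, the shared partner, read 1402, 1127 and 1049 (log2 difference 0.31), and its further probe sets differed by 0.71 and 0.65. The repressor MNT read 251, 202 and 192, the antagonist MXD3 303, 214 and 234, and MXI1 782, 736 and 633. MLXIP, which pairs with MLX in glucose-responsive transcription, was the furthest above at 620.2, 339.5 and 333, whereas MLX was at 1094, 1244 and 1495. Within the MYC family, MYC read 1647, 1608 and 1904 and MYCL 269.8, 199 and 148. The MYC difference of 0.04 turned below 0 with median scaling and when centred by chromosome neighbourhood or gene length. It was −0.21 against the untreated array and −0.09 against the mean of both controls. MGA, a dual-specificity repressor that pairs with MAX, was the lowest of the list at 308, 402 and 541.

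Cofactors and regulators of MYC stability went both ways. The acetyltransferase KAT2A read 492, 321 and 386, and the partner ZBTB17 (MIZ1), through which MYC represses genes, 591, 429.9 and 376. FBXW7, the ubiquitin ligase subunit that marks MYC and MYCN for degradation, read 235, 164 and 155, and the kinase PIM1 374, 245 and 309. In each of these 4 the anti-MYCN PNA array was the highest. The scaffold TRRAP read 716, 717 and 659.7, level between the PNAs. Lower were the ATPases RUVBL1, at 1174, 1429.9 and 1665, and RUVBL2, at 2796, 3053 and 3126, the deubiquitinase USP7, at 1529, 1894 and 1502, and AURKA, a mitotic kinase that stabilises MYCN, at 5060.2, 5807 and 5607. HUWE1 and KAT5 were read by _x_at probe sets, at 0.58 and 0.69, and the further probe sets of KAT5 differed by −0.02 and −0.25.

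Genes that MYC-family factors are known to activate lay close together. Of 31 compared, 0 passed 1.5-fold on the higher side and 1 on the lower, and 20 read above 0. The median of all genes was above 0 too, at 0.06. The list median was 0.19, and relative to all genes it stood at 0.13, turning to −0.04 after quantile normalization. It was 0.01 when centred by signal class and 0.05 when centred by gene length. EIF4E was the 1 lower gene, and its further probe sets differed by −1.10 and −1.49. SHMT2, of serine to glycine conversion, read 21833, 14654 and 15585. The spermidine synthase SRM read 2623, 1924 and 2212, and the initiation scaffold EIF4G1 2463, 1711 and 2524. NPM1, nucleophosmin of the nucleolus, read 27082, 19613 and 21462, but its further probe sets differed by 0.16 and 0.0026. Lactate dehydrogenase LDHA read 25456, 20064 and 18900.1, and its difference turned to −0.07 after quantile normalization. On the lower side stood the spindle checkpoint protein MAD2L1 at 3531, 5145 and 5237.

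Genes known to be repressed by MYC-family factors had a median of 0.55 over 14 genes, 0.49 above all genes. Of these, 6 were at least 1.5-fold higher and 2 lower. DDIT3, the stress factor CHOP, read 3226, 1159 and 1672, and the CDK inhibitor CDKN1A (p21) 1456, 695 and 1082. For both the mutated PNA array was below the untreated one, and the list median between the controls was −0.14. Against the untreated array as control the list lay only 0.13 above all genes. NDRG1, a stress and differentiation gene, read 250.1, 129 and 196, and the nerve growth factor receptor NGFR 577, 305 and 409. Cyclin D1 (CCND1) read 822, 441 and 975, below the untreated value, and its further probe set differed by 0.25. The metalloproteinase inhibitor TIMP2 read 918, 587 and 549.9. THBS1 and ITGA6 were lower, by −0.81 and −0.74, whereas their further probe sets differed by 0.0038 and −0.03.

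Genes of mitosis read lower as a list with the anti-MYCN PNA. Of 61 genes compared in the G2 and mitosis list, 18 were at least 1.5-fold lower (29.5%) and 3 higher, and the median was −0.20, against 0.09 between the controls. Relative to the median of all genes the list stood between −0.51 and −0.16 under all 16 alternatives. Cyclin B1 (CCNB1), which drives entry into mitosis, read 2578, 5094 and 4979.8, with the controls nearly level. HMMR, a spindle protein, read 723, 1689.9 and 1113, and its further probe set differed by −0.65. The condensin subunit SMC4 read 1902, 3443 and 3766, and its further probe sets differed by −0.60 and −0.49. The checkpoint kinase TTK read 529, 948 and 773, the kinetochore protein NDC80 836, 1469 and 1267, and the central spindle kinesin KIF23 546, 959 and 1015. In each of these 6 genes, as in ECT2, the anti-MYCN PNA array was the lowest.

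Some members of the mitosis list stood above the mutated PNA. PKMYT1, the kinase that holds CDK1 inactive, read 1399, 462 and 542 on an _x_at probe set. The ubiquitin-conjugating enzymes of the anaphase-promoting complex, UBE2C and UBE2S, read 8918, 6917 and 6684 and 10986, 9278 and 9378, and securin (PTTG1) 10145, 9159 and 8696. Also at least 1.5-fold higher were MYBL2, a transcription factor of late cell cycle genes, at 5428, 3504 and 4377, and FZR1, an activator of the anaphase-promoting complex, at 392, 257 and 309, named after their values were seen.

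**Figure D5:**
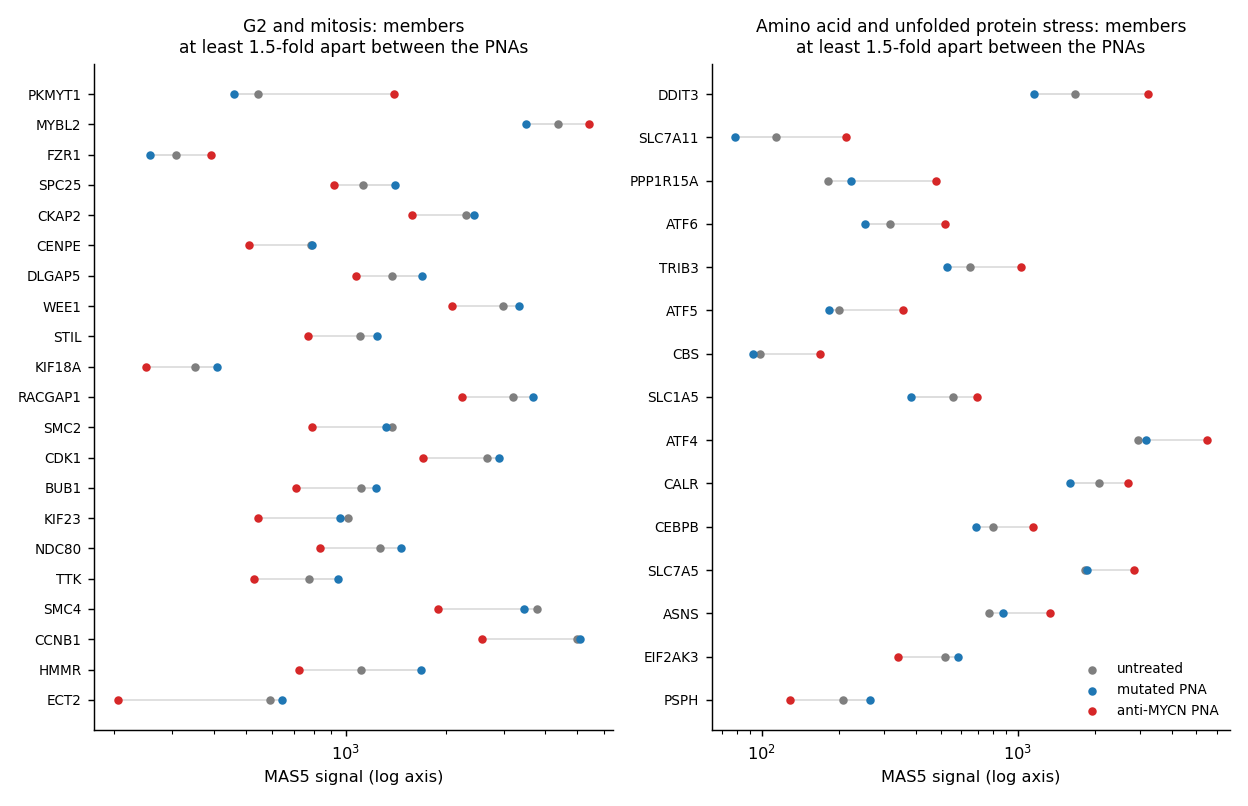
MAS5 signal (log axis) on the untreated (grey), mutated PNA (blue) and anti-MYCN PNA (red) arrays of every member at least 1.5-fold apart between the PNAs, for the list of G2 and mitosis (left, 3 higher and 18 lower) and that of amino acid and unfolded protein stress (right, 13 higher and 2 lower). Red is the lowest point in 18 genes of the left panel and the highest point in 13 of the right panel. The order of red and blue, and in part that of either against grey, follows from the choice of genes.

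S phase genes had a median of −0.15 over 55 genes, at −0.21 relative to all genes, but few members were far apart. At 1.5-fold, 4 were lower and 3 higher. Besides DNA2, the lower genes were DBF4, which activates the kinase CDC7 at origins, at 869, 1687 and 1746, cyclin E2 (CCNE2) at 556, 915 and 767, and RBL1, a pocket protein that represses E2F genes, at 182, 286 and 261. Topoisomerase TOP2A read 3570.2, 5254 and 4938. Higher were E2F1, which switches on S phase genes, at 1012, 496 and 464, DNA ligase LIG1 at 793, 456 and 507, and the polymerase subunit POLD1 at 902, 521 and 541. The further probe set of E2F1 differed by 0.57. Of the bright S phase genes, PCNA differed by −0.04, TYMS by −0.21 and RRM2 by 0.20, the last with a further probe set at −0.20. The 7 replication-dependent histone genes compared, of 60 listed, had a median of −0.21. Their transcripts lack poly-A tails, and the labelling used here starts from such tails. SLBP, which binds the histone stem-loop, read 2643, 3048 and 2932.

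DNA repair genes stood on both sides, with a median of −0.16 over 53 genes. At 1.5-fold, 7 were lower (13.2%, against 10.7% of all genes) and 5 higher (9.43%, against 13.1%). Besides ERCC5, the lower genes included REV3L, the catalytic subunit of translesion polymerase zeta, at 399.9, 745 and 759, FANCF at 122, 224 and 249, and XRCC2 at 146, 295 and 216 on an _x_at probe set. Higher genes included the helicase ERCC2 at 229, 95.3 and 108, XRCC3 at 248, 125 and 125, the scaffold XRCC1 at 588, 312 and 330.4, and FANCC at 562, 303 and 277. The Ku proteins XRCC5 and XRCC6 differed by −0.37 and 0.25. Within nucleotide excision repair ERCC5 and ERCC2 thus stood at opposite ends.

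Among p53 targets and apoptosis genes the median was −0.04 over 29 genes, and under the 75th percentile filter it lay 0.14 above all genes. The caspase inhibitors XIAP and BIRC2 read 67.5, 167 and 145 and 691, 1331 and 1347. APAF1, of the apoptosome, read 245, 437 and 307, and the p53 phosphatase PPM1D 318, 474 and 389.6. BAK1, which opens the mitochondrial outer membrane, read 416, 164 and 205, and BID, which activates it, 917, 651 and 738. CDKN1A, given above, was the other member at least 2-fold higher. The p53 target GADD45A differed by −0.16 and cytochrome c (CYCS) by −0.02.

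Cytosolic ribosomal proteins had a median of 0.40 over 52 genes, 0.34 above all genes, but at −0.09 relative to them after quantile normalization. Of them, 5 were at least 1.5-fold higher and 1, RPLP2, lower. RPL32 read 33455, 20028 and 19550.1, RPL41 39794, 24714 and 24046 and RPS19 44735, 28445 and 27932. RPS23 read 43257, 31982 and 29588, and its difference of 0.44 turned to −0.12 after quantile normalization. RPL37A read 42768, 29233 and 28454 on its brightest probe set, whereas its further, dimmer probe sets differed by −0.67 and −0.41. The genes of this list gave high signals, with a median of 24053 over the 3 arrays, and are short, with a median length of 4.9 kb. Many have processed copies elsewhere in the genome that share probes.

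Mitochondrial ribosomal proteins, with a median gene length of 8.61 kb and lower signal, had a median of 0.01 over 48 genes. MRPL2 read 444, 244 and 215, MRPL49 2763, 1645 and 1519 and MRPL4 1102, 732 and 959.7. MRPL19 was the 1 gene at least 1.5-fold lower, at 908, 1446 and 1151. Relative to all genes the list stood between −0.08 and 0.03 under all 16 alternatives.

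Ribosome production in the nucleolus had a median of −0.07 over 53 genes. At 1.5-fold, 6 were lower (11.3%, near the 10.7% of all genes) and 2 higher (3.77%, against 13.1%). Relative to all genes the list stood between −0.23 and −0.02 under all 16 alternatives. RRN3, which carries RNA polymerase I to ribosomal DNA, read 303, 646 and 662, and TAF1C, of the polymerase I factor SL1, 122, 208 and 197. NIP7 and NOC3L, of large subunit assembly, read 243, 514 and 591 and 403, 780.4 and 819, HEATR1, of small subunit assembly, 541, 989 and 1097, and the GTPase GNL2 1022, 1729 and 1951. In all 6 the anti-MYCN PNA array was the lowest, and the mutated PNA array was below untreated in all but TAF1C. NOL6 at 409.6, 172 and 266 and TCOF1 (treacle) at 516, 304 and 387 were higher. Fibrillarin (FBL) differed by 0.28 and nucleolin (NCL) by 0.06, the latter below 0 after quantile normalization or median scaling.

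Translation factors had a median of 0.12 over 41 genes and moved to either side of all genes among the alternatives, from −0.08 to 0.12. Besides EIF4E, the genes at least 1.5-fold lower were EIF1AX, of start codon scanning, at 3271, 5199 and 5009, the ribosome recycling factor ABCE1 at 1472, 2404 and 2639.9, and the EIF3 subunit EIF3M at 5030.5, 7596 and 6898. All 3 further probe sets of EIF1AX were lower, from −0.82 to −0.63. EIF1, its partner in scanning, read 24189, 16632 and 16105. Its 4 further probe sets differed by 0.65 to 0.67, but all carry the suffix _x_at. The helicase cofactor EIF4H read 7886, 5636 and 6081, and the EIF4E-binding protein EIF4EBP2 654, 465 and 457. The elongation factor EEF1A1 differed by 0.33, and by −0.18 after quantile normalization.

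Aminoacyl-tRNA synthetases, which charge transfer RNAs, had a median of −0.01 over 26 genes. RARS1 (arginine) read 1344, 2849 and 2937 and the mitochondrial YARS2 (tyrosine) 270.2, 579 and 650.1, and both were at least 2-fold lower. The furthest above were the mitochondrial SARS2 (serine) at 373, 220.5 and 253 and CARS2 (cysteine) at 222, 146 and 225, AARS1 (alanine) at 1213, 804 and 819, and GARS1 (glycine) at 4830.2, 3411 and 3835. CARS2 was low only on the mutated PNA array.

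Genes of the response to amino acid shortage and unfolded proteins read higher with the anti-MYCN PNA. Of 45 genes compared, 13 were at least 1.5-fold higher (28.9%) and 2 lower. The median was 0.26, against −0.07 between the controls. It lay above all genes by 0.14 to 0.26 under all 16 alternatives. DDIT3, given above, was the furthest above, followed by the cystine transporter SLC7A11 at 214, 78.9 and 114. PPP1R15A (GADD34), which restores translation by dephosphorylating EIF2, read 481, 224 and 182, and its further probe set differed by 0.39. The pseudokinase TRIB3 read 1031, 528 and 649, and the factor ATF5 differed by 0.95. Of the sensors of the endoplasmic reticulum, ATF6 read 521, 253 and 317. Of amino acid enzymes, CBS, of cysteine synthesis, read 168, 92.8 and 98.1, and PSPH, of serine synthesis, 129, 265 and 207. PSPH was 1 of the lower genes.

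Other members at least 1.5-fold higher, named after their values were seen, included the factor ATF4 at 5491, 3187 and 2964, asparagine synthetase ASNS at 1338, 879 and 769.7 and the transporters SLC7A5 at 2862, 1859.7 and 1837 and SLC1A5 at 693, 384 and 560.1. The other lower gene, chosen in the same way, was the sensor kinase EIF2AK3 (PERK) at 341, 586 and 519. Of the chaperones of the endoplasmic reticulum, HSPA5 (BiP) read 4339, 4543 and 5212 and calnexin (CANX) 5006, 4245 and 4372. Calreticulin (CALR) and the HSP90 of the endoplasmic reticulum (HSP90B1) stood apart, at 0.76 and −0.44 on _x_at probe sets, and were named after their values were seen.

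Chaperones of the cytosol and mitochondria had a median of 0.06 over 44 genes. At 1.5-fold, 4 were lower (9.09%, against 10.7% of all genes) and 0 higher. CHORDC1, an HSP90 cochaperone, read 318, 841 and 931, and DNAJB4 466, 766 and 502. The prefoldin subunits PFDN4 and PFDN1 read 1960.1, 2949 and 3114 and 1461, 979 and 784, but a further probe set of PFDN4 differed by 0.22, so that gene has no settled side. HSP90AA1 and HSP90AB1 differed by 0.26 and 0.35, and their further probe sets by −0.07 to 0.09.

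Proteasome subunits read close together, with a median of 0.06 over 38 genes, 1 at least 1.5-fold higher and 0 lower. The higher one was PSME1, of the interferon-induced activator, at 1524, 844 and 829. The lowest was PSMD12 at 1995, 2962 and 2572, and its further probe set differed by −0.39. Ubiquitin ligases and conjugating enzymes had a median of −0.04 over 42 genes, at −0.10 relative to all genes and at 0.04 when centred by chromosome neighbourhood. UBA3, the activating enzyme for NEDD8, read 592, 1171 and 1070.4, and UBE2E3 1796, 2996 and 2325. UBA1, the main activating enzyme for ubiquitin, read 3550.3, 1969.6 and 2332, the cullin CUL7 448, 217 and 272, and UBE2Z 1785, 1073 and 1156.

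Glycolysis and the pentose phosphate pathway had a median of 0.23 over 27 genes, 0.17 above all genes and 0.02 above them without _x_at and _s_at probe sets. Of them, 4 were at least 1.5-fold higher (14.8%, near the 13.1% of all genes) and 1 lower (3.7%, against 10.7%). Pyruvate kinase PKM read 14411, 8718 and 9566, aldolase ALDOA 15079.5, 9934 and 10123, and GAPDH 33961, 21406 and 21541. Hexokinase HK1 read 849.8, 564 and 689 and the isomerase GPI 4847, 3298 and 3502. PFKFB3, which makes the activator of phosphofructokinase, went the other way at 159, 327 and 382. Enolase ENO1 read 19992, 16971 and 16989, and its difference of 0.24 turned to −0.15 after quantile normalization.

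Hypoxia-induced genes had a median of −0.02 over 22 genes. HIF1A read 2932, 3957 and 4150.0 and EPAS1, its paralogue, 1333, 911 and 911. The collagen lysyl hydroxylases PLOD2 and PLOD1 stood apart in the same way, at 422, 718 and 721 and 909, 630.4 and 671. ARNT, the partner of both factors, read 179.7, 309.6 and 249, but its further probe set differed by 1.55 in the other direction, so that gene has no settled side.

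The respiratory chain read close to level, with a median of 0.03 over 64 genes, 0 at least 1.5-fold higher and 1 lower. The 1 lower gene was the complex I subunit NDUFA5 at 1061, 2058 and 1948. NDUFB11 was the furthest above at 3873, 2816 and 3088. The list's median gene length was 10.2 kb.

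Genes of cholesterol and fatty acid synthesis had no steady place against all genes. The list had a median of 0.15 over 25 genes, 4 at least 1.5-fold higher (16%, against 13.1% of all genes) and 1 lower. Relative to all genes it stood at 0.09. With the untreated array as control it was at −0.15, and with the mean of both controls at −0.01. SREBF2, the master factor of cholesterol synthesis, read 1137, 532 and 467, its escort SCAP 860.3, 529 and 604, and SREBF1 316, 212 and 222. Fatty acid synthase FASN read 2706, 1673 and 1824. INSIG1, which retains SCAP in the endoplasmic reticulum, read 491, 798 and 692, but its further probe sets differed by 0.09 and 0.38. Mevalonate kinase MVK read 553, 364 and 329.8, and its further probe sets differed by −0.74 and −0.59. Neither INSIG1 nor MVK has a settled side.

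Nucleotide synthesis genes had a median of −0.0076 over 34 genes. The ribonucleotide reductase subunit RRM1 read 3735, 5114 and 4819.7, dUTPase (DUT) 2456, 3960.1 and 3509, and the salvage kinase DCK 708, 1131 and 1104. The nucleotidase NT5C2 read 533, 1030.3 and 779, and MTHFD1, of one-carbon metabolism, 2595, 3722 and 3288. IMPDH1, of guanine nucleotide synthesis, read 447, 211 and 306, and was low on the mutated PNA array relative to untreated. Of 13 genes of polyamine metabolism none was 1.5-fold apart. ODC1, which starts polyamine synthesis, read 13189, 10581 and 10912, and antizyme (OAZ1), which targets it for degradation, 14330.5, 12853 and 13009.7. AMD1, which makes the aminopropyl donor, read 1303, 1629 and 1574, and the antizyme inhibitor AZIN1 1654, 2170.4 and 2382.

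Lysosomal genes had a median of 0.25 over 50 genes. At 1.5-fold, 7 were higher (14%, near the 13.1% of all genes) and 1 lower (2%, against 10.7%). Acid alpha-glucosidase GAA read 301, 156 and 149.8, and the cathepsins CTSF and CTSH 168, 89.2 and 111 and 174, 97.5 and 134. In these 3 the anti-MYCN PNA array was the highest, and in GAA and CTSF the controls were the closest pair. The proton pump subunit ATP6V0C read 1995, 1147 and 1211 and ATP6AP1 1410.2, 894 and 887, whereas the catalytic subunit ATP6V1A read 707, 1204 and 996. The autophagy receptor SQSTM1 (p62) read 1277, 789 and 866.

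Oxidative stress genes and metallothioneins had 9 of 35 genes at least 1.5-fold higher and 0 lower, with a median of 0.34. The list lay 0.27 above all genes, and 0.07 above them when probe sets with the suffixes _x_at and _s_at were left out. Besides SLC7A11, glutathione peroxidase GPX3 read 246, 117 and 83.2, and its further probe set differed by 0.93. The metallothioneins MT2A, MT1X, MT1F, MT1G and MT1H, near-identical metal-binding proteins, differed by 0.65, 0.66, 0.62, 0.61 and 0.59, each on an _x_at probe set. A further probe set of MT1X differed by 0.10. For MT2A, MT1X, MT1F and MT1H the mutated PNA array was below untreated, with MT2A at 3570.5, 2278 and 2971. Peroxiredoxin PRDX1 read 14272, 10816 and 10752, and superoxide dismutase SOD1 11885, 11344 and 11402.

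Sarcomere and contractile genes had a median of 0.24 over 21 of 59 listed genes, and the same list had 0.27 between the controls. Cardiac actin ACTC1 read 27505, 19864 and 17091, so signals went up from untreated through mutated PNA to anti-MYCN PNA. The brain-type creatine kinase CKB read 581, 307 and 252 and desmin (DES) 1609, 923 and 911. Dystrophin (DMD), a very long gene, read 463, 869.6 and 1045, and titin (TTN) 735, 1036 and 774. KLHL41, which stabilises the thin filament, read 261, 589 and 213, so the mutated PNA array was high and the other arrays close. With the untreated array as control the KLHL41 difference was 0.29.

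Among myogenic and lineage genes the median was 0.13 over 31 genes. The muscle cadherin CDH15 was the furthest above, at 943, 379 and 492, and its further probe set differed by 0.94. The acetylcholine receptor subunit CHRNA1 read 3286, 2795 and 4176. Myostatin (MSTN), which limits muscle growth, read 907, 1953 and 915, with the mutated PNA array high and the others level. MEF2C, a factor of muscle differentiation, read 1474, 2216 and 1336, and its further probe sets differed by −0.76 and −0.10. The E proteins that pair with MYOD1 were lower, TCF12 at 1186, 1778 and 2114 and TCF4 at 709, 1184 and 1086, and 5 of the 6 further probe sets of TCF4 were below 0. The mesenchymal cadherin CDH11 read 697, 1157 and 1083 on an _x_at probe set, whereas its further probe set differed by only −0.06.

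Targets of PAX3-FOXO1 had a median of −0.20 over 29 genes, at −0.26 relative to all genes, and between −0.31 and −0.06 under all 16 alternatives. Besides EPHA7, the receptor MET read 1254, 2994 and 2449, but its dimmer further probe sets differed by −0.49 and 0.02. The sheddase ADAM10 read 1901, 2937 and 3318, and both of its further probe sets were lower too. GREM1, a BMP antagonist, read 340.0, 547 and 484. The receptor FGFR4 read 3409.9, 2395 and 3191, the adhesion molecule L1CAM 599, 331 and 449, and the neural factor POU4F1 1457, 936 and 1062. FGFR4, L1CAM and POU4F1 were lowest on the mutated PNA array. A further probe set of POU4F1 differed the other way, by −0.45.

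Growth factor receptors and the IGF axis held members far apart in both directions, with 7 of 26 at least 1.5-fold lower and 4 higher. LGR4, the paralogue of LGR5, read 384, 782 and 718, and the insulin receptor substrate IRS1 469.8, 827 and 537. The insulin receptor INSR read 239, 134 and 131, the IGF-binding protein IGFBP6 221, 81.1 and 158, and the ephrin receptor EPHA2 423, 216 and 462. For EPHA2 and IGFBP6 the mutated PNA array was low against untreated. IGF2R, which clears IGF2, read 2310.1, 1847 and 1911.

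The ERK feedback and immediate early list depended on the control chosen. Against the mutated PNA its median was 0.25 over 34 genes, with 8 at least 1.5-fold higher. Between the controls its median was −0.29, with 14 at least 1.5-fold lower with the mutated PNA than without a PNA. With the untreated array as control the list stood at −0.39 relative to all genes. The ETS factor ETV5 read 351, 168 and 556 and ETV4 81.8, 50.1 and 307, so the untreated array was the highest in both. IER2, an immediate early gene, read 2474, 1599.9 and 2587, whereas FOSL2, of the AP-1 family, was highest with the anti-MYCN PNA at 402, 224 and 193. The decay factor ZFP36L1 read 1421, 2418 and 2405 and the membrane protein EMP1 153, 246 and 1094, and a further probe set of each differed the other way, by 0.97 and 0.63.

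TGF-beta and BMP feedback genes had a median of 0.12 over 31 genes. PMEPA1, which limits SMAD signalling, read 220.5, 94.3 and 157, and the coreceptor ENG 458, 196 and 205. The ligand TGFB1 read 763, 461 and 588, the stress-induced activin chain INHBE 1123, 627 and 582, and the decoy receptor BAMBI 211, 125 and 140.1. SMAD4, the shared mediator of the pathway, read 878, 1392 and 1313, and the corepressor SKIL 166, 244 and 328. The targets ID1 and ID3 differed by −0.07 and 0.12.

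Notch pathway genes had a median of 0.44 over 21 genes, 0.38 above all genes, and stayed above them under all 16 alternatives by 0.18 to 0.43. The receptor NOTCH3 read 1512, 735 and 676, whereas NOTCH2 read 2485, 2691 and 2226. FURIN, which cuts Notch precursors, read 215, 88.7 and 61.9, and the glycosyltransferase RFNG 446, 267 and 290.1. Of the ligands, JAG2 read 356, 239 and 371 and DLL3 259, 159 and 168. The target HES1 read 220.4, 144 and 224, so its untreated and anti-MYCN PNA signals were close. ADAM10, given above, was the 1 gene at least 1.5-fold lower.

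Wnt and Hedgehog genes had 12 of 35 at least 1.5-fold higher (34.3%) and 3 lower, with a median of 0.22, and stood at −0.10 relative to all genes with the filter at the 75th percentile. The ligands WNT5B and WNT11 read 648, 275 and 286 and 246, 121 and 127. SMO, the Hedgehog signal transducer, read 375, 160.2 and 202. Of the destruction complex, AXIN1 read 349.7, 189 and 179 and APC 123, 286 and 264. The adaptor DVL3 read 1091, 591 and 657, and the receptor FZD3 83.5, 159 and 206.

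Collagens and matrix genes had 14 of 48 at least 1.5-fold higher (29.2%) and 3 lower, with a median of 0.25. The list lay above all genes under all 16 alternatives, by 0.16 to 0.32, and by 0.32 when centred by gene length. Its median gene length was 77.8 kb. Besides CHPF, of chondroitin synthesis, the chondroitin sulfotransferase CHST3 read 218, 95.3 and 88.6, and its further probe set differed by 1.93. The proteoglycan agrin (AGRN) read 677, 298 and 314, and its further probe set, with the suffix _x_at, read 589.9, 239 and 215. The membrane metalloproteinase MMP14 read 529, 264 and 229.9, its inhibitor TIMP1 2041, 1108 and 1515, and the laminin chain LAMA5 219.9, 115 and 116. The bright matrix genes COL4A2 and FN1 read 6877, 4682 and 4928 and 5925, 4050.4 and 5685, and the 4 further probe sets of FN1 were all above 0.

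MHC class I presentation genes had the highest median, 0.76, over 9 of 20 listed genes. TAPBP (tapasin), which loads peptides, read 275, 142 and 137. The class I genes HLA-E, HLA-F and HLA-G, close relatives read by _x_at probe sets, read 699, 506 and 524, 179.6, 94.5 and 101 and 185, 65.3 and 119, and their own levels are uncertain. Beta-2-microglobulin (B2M), the invariant chain, read 7629.8, 8511 and 8367. Interferon-induced genes had a median of 0.42 over 14 genes, and without the signal filter stood at −0.0053 relative to all genes. IRF1 read 270.3, 117 and 198, lowest on the mutated PNA array, and the sensor IFI16 486, 784 and 694. IFITM3 and IFITM2, near-identical antiviral proteins on _x_at probe sets, differed by 0.74 and 0.66.

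Splicing factors and hnRNPs had a median of −0.03 over 78 genes. At 1.5-fold, 7 were lower (8.97%, against 10.7% of all genes) and 3 higher (3.85%, against 13.1%). SRSF11 read 2954, 6015 and 6864, and its further probe sets differed by −1.23 and −0.33. The regulators MBNL1, MBNL2 and QKI read 694, 1121 and 1146, 284, 552 and 562 and 2644, 4347 and 3348. Both further probe sets of MBNL1 were lower, by −1.33 and −0.49, but those of QKI differed by −1.17, −0.07, 0.05 and 0.09. DHX15, which takes the spliceosome apart, read 3730.3, 6779 and 5587, and HNRNPA3 2863, 4486 and 4362. LSM2 read 1081, 614 and 764 and SF3A2 490.3, 300.1 and 339. The bright core proteins SNRPD2 and SNRPG differed by 0.11 and 0.11, both below 0 after quantile normalization or median scaling.

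Within RNA polymerase II transcription, the largest subunit and the Mediator kinase went apart. POLR2A read 1030.1, 467 and 442, whereas POLR2B, the second largest subunit, read 5142, 6279.7 and 6249. CDK8 read 684, 1274 and 1324 and its Mediator neighbour MED12 1128, 657 and 631, the latter on an _x_at probe set. CCNT2, of the elongation factor P-TEFb, read 343, 626 and 646, TAF2 616, 1141 and 1134, and MED4 574, 916 and 1065. The list median was −0.03 over 57 genes.

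Chromatin regulators had 16 of 71 genes at least 1.5-fold higher (22.5%) and 6 lower, with a median of 0.21. Relative to all genes the list stood at 0.15, and at 0 when centred by chromosome neighbourhood. Besides HDAC5, the corepressor atrophin (ATN1) read 548, 198 and 185, and its further probe set differed by 1.28. The H3K27 demethylase KDM6B read 478, 225 and 305, and its further probe sets differed by 0.65 and −0.69. The bromodomain protein BRD2 read 2622, 1409.7 and 1395, SMARCB1, of the SWI/SNF complex, 1819, 955 and 1041, and TET3, a 5-methylcytosine oxidase, 229, 115 and 112. The heterochromatin protein CBX3 read 3890.1, 6530.3 and 6121, the deacetylase HDAC2 4624, 6081 and 6309, and SIRT1 177, 319 and 279.

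Nuclear pore and transport genes had a median of −0.0070 over 52 genes, with 26 above 0 and 26 below. At 1.5-fold, 8 were lower (15.4%, against 10.7% of all genes) and 5 higher (9.62%, against 13.1%). RANBP2 read 547, 1149.8 and 1344, and its further probe sets differed by −0.86 and −0.94. SEH1L and NUP160, of the scaffold ring, read 840.4, 1843 and 1633 and 636, 1196 and 1109, and NUP153 845, 1541 and 1481. NUP214, of the cytoplasmic face, read 569, 287 and 356, and the import receptor IPO13 386, 130.2 and 190.2. The import receptor KPNB1 differed by 0.37, but its 5 further probe sets ran from −0.60 to 0.20.

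Vesicle traffic and Golgi genes were spread evenly, with 9 of 68 at least 1.5-fold higher, 10 lower and a median of −0.05. VPS39, of the lysosomal tether HOPS, read 399, 188 and 204, and the clathrin light chain CLTB 737, 351 and 396. The ARF regulators ARFGAP1 and GBF1 read 942, 477 and 665 and 1523, 831 and 876. VPS4B, which recycles ESCRT-III, read 377, 691 and 597, and the COPII subunit SEC24A 246, 454 and 373, whereas a further probe set of SEC24A differed by 0.10. The clathrin heavy chain CLTC read 7013, 8531 and 8577.

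Actin, adhesion and cytoskeleton genes had 18 of 64 at least 1.5-fold higher (28.1%) and 4 lower, with a median of 0.21 and a place above all genes under all 16 alternatives, by 0.07 to 0.22. Cofilin (CFL1), which severs actin filaments, read 29015, 14664 and 17657, and LIMK1, the kinase that inactivates it, 170.5, 63.9 and 145. Zyxin (ZYX) of focal adhesions read 1136, 531 and 671, and its further probe set, with the suffix _x_at, differed by 1.23. Alpha-actinin ACTN4 read 1094, 534 and 738, and non-muscle myosin MYH9 1722, 876 and 1039.5. In all 5 genes the mutated PNA array was the lowest. The nuclear lamin LMNB1 read 998, 2259 and 1676 and integrin ITGAV 2436, 4929.6 and 4434, both lower. Tubulins TUBA1B and TUBB and actin ACTB, bright genes on _x_at probe sets, differed by 0.57, 0.65 and 0.69.

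Transcripts often used as references did not read level. Of 13 compared, 4 were at least 1.5-fold higher and 0 lower. ACTB read 36379.6, 22521 and 22788, cyclophilin PPIA 39127, 25913 and 25886 and GAPDH 33961, 21406 and 21541. GUSB read 1155, 1337 and 1233, and the TATA-binding protein TBP 655, 444 and 485. Their median was 0.14, against 0.02 between the controls. Markers of other cells that passed went both ways. Epithelial markers ran from −0.25 to 0.56, with KRT18 at 397, 365 and 658. The leukocyte marker ITGB2 read 204, 228 and 133. Of the fibroblast markers COL3A1 read 319, 406 and 344, and the other differed by 0.85. The endothelial marker ENG, given above, differed by 1.23.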

How the data were processed

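Total RNA of each culture was extracted with a phenol-based reagent, labelled with biotin by Affymetrix's one-cycle protocol and hybridised to 1 expression array, per the labels' protocols. The authors deposited 1 intensity per probe set on a linear scale. The submitters' processing notes name MAS5 and GCOS, and versions are not given in the sources used here. MAS5 scales an array by 1 factor, and each of the 3 arrays had a 2% trimmed mean of 500.2, with no sign of a step that aligned their distributions. The number of arrays limits the precision.

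Of 22277 probe sets, 62 are controls, 19064 name 1 gene in GEO's platform annotation, 1043 name several and 2108 none. Only those with 1 gene were compared, and 19052 of them were found in RefSeq's gene table of GRCh38.p14, which gave current symbols, gene lengths and chromosomes. Promoter GC content came from RefSeq's promoter table, with a value for 84.3% of genes compared. Arrays were scaled to one trimmed mean, floored at 23.4, filtered at a mean of 117 (9899 probe sets) and compared on the log2 scale, 1 probe set for each of 6745 genes. The computation was tested on simulated data.

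The comparison and all 47 gene lists were chosen with earlier results of these data known. Genes named are MYCN and its network, the 20 furthest each way, up to 8 members of each list with the largest difference, the 3 of highest signal and the 5 on either side of the filter. Any gene outside this rule is marked as chosen after its values were seen. Alternatives were signals as deposited, quantile normalization, median scaling, other filters, no floor, a pseudocount of 16, other choices of probe set, centring by chromosome neighbourhood, promoter GC or signal class, the untreated array or the mean of both controls as control, and thresholds of 1.5-fold and 3-fold. Centring by gene length was added after seeing the data. Python 3.11.15, numpy 2.4.6, pandas 2.3.3 and matplotlib 3.10.9 were used.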

Additional observations from a re-analysis of the deposited data

Results flagged for a closer look

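Probe sets that name no gene or several genes took no part in the comparison. Of these, 1233 passed the signal filter, and 16 were at least 2-fold above both control arrays on the anti-MYCN PNA array, while 17 were at least 2-fold below both. They are given here because they hold signal above the control arrays in data that the comparison does not use. The both-controls rule uses 1 array for each condition, so the count has no replicate check.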

How the results depend on the processing

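No paired analysis was possible because each condition has 1 array, and for the same reason no replicate could be left out. The count of genes at least 2-fold higher, 182 in the main setting, was 85 with median scaling, 952 with no filter, 31 with the filter at the 75th percentile, 119 with the filter on both PNA arrays and 98 when probe sets ending in _x_at or _s_at were left out. It was 117, 112 and 107 when centred by chromosome neighbourhood, promoter GC and signal class, 883 at 1.5-fold and 22 at 3-fold. The count at least 2-fold lower, 157, was 307 with median scaling, 438 with no filter, 62 at the 75th percentile, 719 at 1.5-fold and 9 at 3-fold. The other settings stayed within 1.5 times the main count, and without a filter 11963 genes were tested, so that count grows by construction. For median scaling and the centred settings the cause was not tested.

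MYCN was below the control in all 15 settings that gave a value and had none without probe sets ending in _x_at or _s_at. The other filters, no floor and the median over probe sets left its difference at −0.35 by construction and are no check on it. Of 43 list medians relative to all genes, 20 changed sign under at least 1 alternative, among them 8 of the 28 that lay further than 0.09 from 0 (the SD of list medians between the controls). These 8 were the MYC network (−0.14), p53 and apoptosis (0.14) and Wnt and Hedgehog (−0.10) with the filter at the 75th percentile, MYC-activated genes (−0.040) and cytosolic ribosomal proteins (−0.090) after quantile normalization, ubiquitin enzymes (0.038) when centred by chromosome neighbourhood, interferon-induced genes (−0.0053) without a filter, and ERK feedback genes (−0.39 against the untreated array and −0.075 against the mean of both controls). Of the 15 lists nearer to 0, 3 went past 0.09 on the other side: growth factor receptors (−0.21 with the filter at the 75th percentile and −0.14 when centred by promoter GC), cholesterol and fatty acid synthesis (−0.15 against the untreated array) and myogenic genes (−0.10 when centred by promoter GC). Chromatin regulators went from 0.15 to 0 when centred by chromosome neighbourhood, which was not counted as a change of sign.

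Of 454 named genes, 86 changed sign under at least 1 alternative, including 37 against the untreated array, 24 when centred by chromosome neighbourhood, 23 after median scaling and 18 after quantile normalization. Of the 263 at least 1.5-fold apart 18 did so, and of the 99 at least 2-fold apart 3 did, all against the untreated array: ETV5 (−0.67), SPRY4 (−0.59) and KLHL41 (0.29). Others at least 1.5-fold apart turned against that array too, with ETV4 (−1.91, and −0.60 against the mean of both controls) the furthest, then MT1H (−0.33), CCND1 (−0.25), MEF2C (0.14), EPHA2 (−0.13), HSPA4L (0.13), IER2 (−0.06), CARS2 (−0.02) and HES1 (−0.02). ARNT, INSIG1, KAT5, MVK, POU4F1 and ZFP36L1 turned with another choice of probe set. The cause was not tested. Dim probe sets limit the rest: in the dimmest class 95% of control differences were within 0.94, against 0.28 in the brightest.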
